A study of Mus musculus with 2 samples.

Results

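The genes of arginine and nitric oxide metabolism examined here are Nos2, Arg1, Arg2, Ass1, Asl, Slc7a2, Slc7a1 and Odc1. They were taken by symbol, each symbol matched 1 gene, and they are 8 of the 32285 genes in the files. Their unique molecular identifiers (UMIs, each counting 1 captured RNA molecule) were summed by cell class in 2 single-cell RNA libraries from pancreatic tumours of mice. The tumours grew from KPC cells, a murine line of pancreatic cancer, that were injected into the pancreas of mice. The cells of KPC-shZEB1 carried a stably integrated hairpin against Zeb1, and those of KPC-shV were the control. Each library came from 1 tumour. The study describes lentiviral transfer and drug selection for its knockdown lines, and the sources used here do not say how the control line was made. The study's text speaks of mice given gemcitabine, but no label does. The study used these libraries to compare cell proportions, T and NK cell subsets and signalling between cells. It also scored inflammatory and suppressive states of tumour neutrophils in them.

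L-arginine is shared by competing enzymes in myeloid cells. Inducible nitric oxide synthase, the product of Nos2, converts it to nitric oxide and citrulline, while the arginases split it into ornithine and urea. Argininosuccinate synthase and lyase rebuild arginine from citrulline, cationic transporters bring it in from outside, and ornithine decarboxylase sends ornithine into polyamines. Nos2 and Arg1 are the classical mouse markers of inflammatory and of alternatively activated macrophages, and arginase in tumour myeloid cells is known for depriving T cells of arginine.

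After filters and doublet removal, 11398 and 12104 cells with 101201508 and 118943000 UMIs remained in the KPC-shV-labelled and KPC-shZEB1-labelled libraries, with a median of 3720 and 4252 UMIs per cell. Every pair of values below gives the KPC-shV-labelled library first, and a ratio is the KPC-shZEB1-labelled library over the KPC-shV-labelled library. Levels are UMIs per 1000000 UMIs of the class (CPM) with exact 95% Poisson intervals in parentheses, which cover counting error only. With 1 library per group no difference has a replicate check, no test was possible, and mouse, tumour, dissociation and library cannot be told apart from the hairpin. Zeb1 itself went against the labels. In tumour-like cells it stood at 126 and 154 CPM, with a ratio of 1.21 (1.15–1.28). Ratios in other classes were 1.49 in neutrophil-like, 1.46 in macrophage-like, 1.10 in T-like and 1.08 in fibroblast-like cells. T-like cells had 1340 and 1473 CPM, and the part of RNA from other cells in the tumour-like value was not tested. The tumour-like class leaves out unnamed clusters led by Cntn5 and Prg4 (514 and 208 cells) and by Zfp804b and Pcdh9 (10 and 230 cells). The libraries are named by their labels throughout. The libraries shared 46 barcodes, of which 36 were among the cells kept. All classes had their defining markers, and every one of the 11 neutrophil, 8 monocyte, 10 macrophage and 8 tumour markers was found in at least 10% of the cells of its class in both libraries.

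The classes compared were neutrophil-like cells (6865 and 4329), monocyte-like cells (436 and 561), macrophage-like cells (1184 and 1923), T-like cells (318 and 1003), NK-like cells (55 and 173), B-like cells (289 and 1226), fibroblast-like cells (361 and 380), endothelial-like cells (146 and 82) and tumour-like cells (966 and 988). RNA of other cells differed between the libraries in the classes examined for it. In neutrophil-like cells the 10 macrophage markers summed to 1023 and 2584 CPM, with 9 of the 10 higher in the KPC-shZEB1-labelled library. The 7 acinar markers summed to 65.5 and 405 CPM there, with all 7 higher, and none of either list was at 0. In B-like cells, which should lack these genes, the macrophage list summed to 901 and 2324 CPM. The level of a member in B-like and T-like cells is therefore given beside low levels elsewhere.

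**Figure D1:**
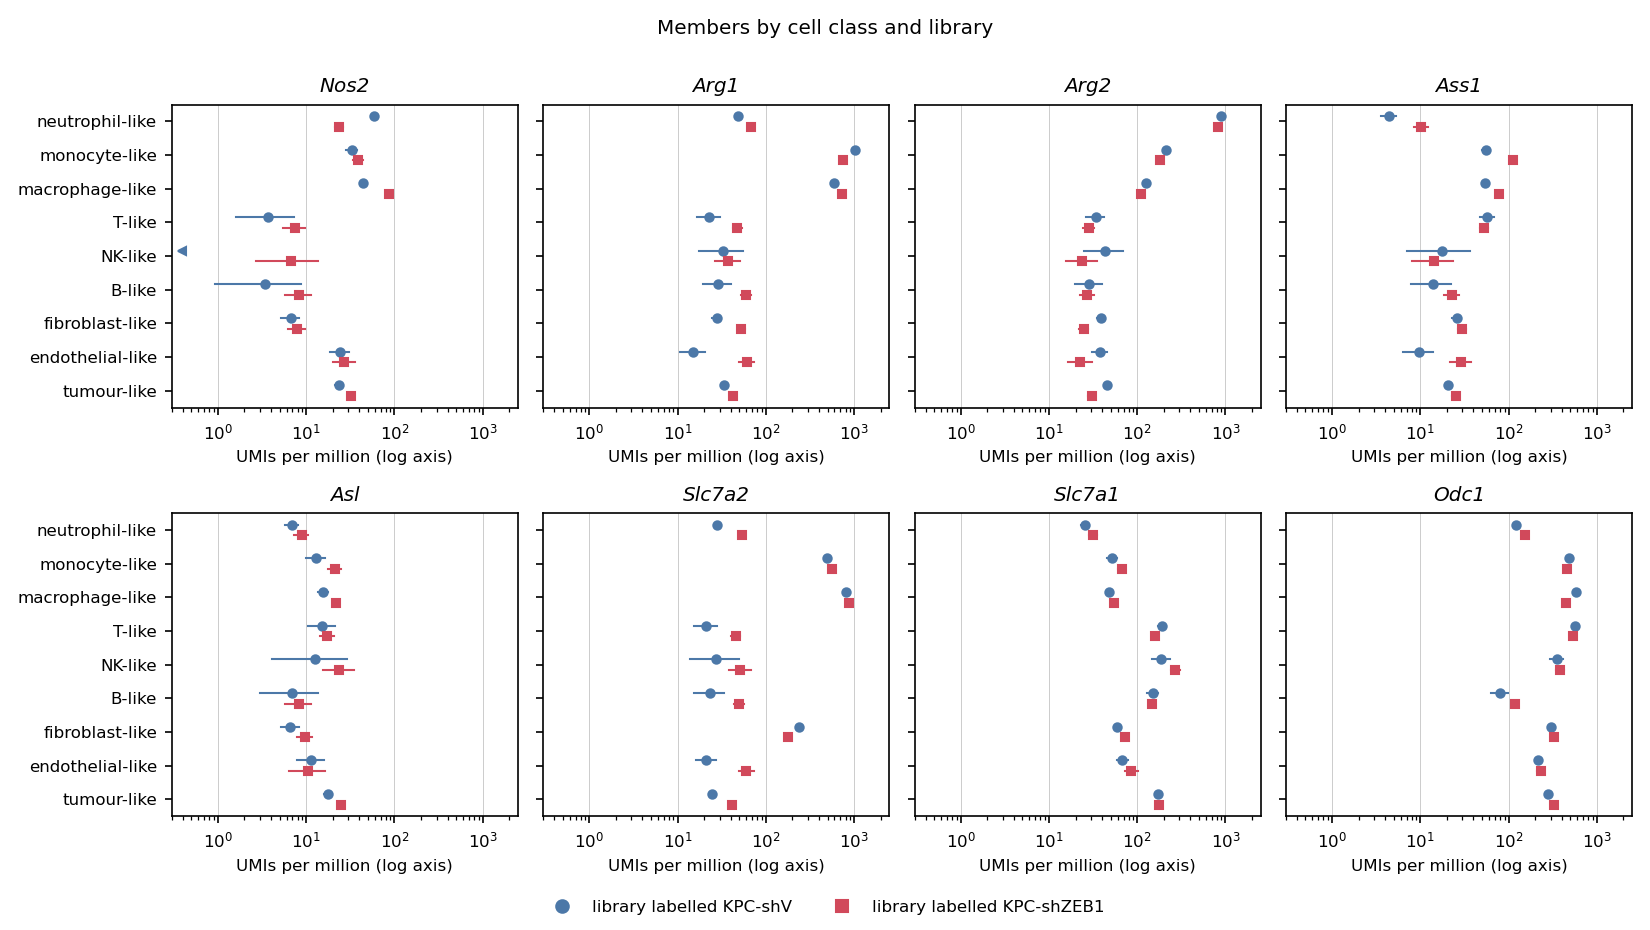
CPM of each member (log axis) in 9 cell classes, with circles for the KPC-shV-labelled library, squares for the KPC-shZEB1-labelled library, lines for 95% Poisson intervals and a left-pointing triangle for a count of 0. Nos2 was highest in neutrophil-like cells at 59.2 CPM in the KPC-shV-labelled library and in macrophage-like cells at 87.0 CPM in the KPC-shZEB1-labelled library, while Arg2 stood apart in neutrophil-like cells in both.

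The class that held most Nos2 differed between the libraries. Nos2 (ENSMUSG00000020826; chromosome 11, 78920787 to 78960254, plus strand, GRCm38) was counted 3117 and 4370 times in all. Neutrophil-like cells held 43.3% (41.6–45.1, exact binomial) of these UMIs in the KPC-shV-labelled library and 7.28% (6.52–8.09) in the KPC-shZEB1-labelled library. Macrophage-like cells held 25.5% (24.0–27.1) and 62.0% (60.5–63.4). Tumour-like cells held similar shares, 14.5% and 15.1%. Part of this is cell number, since neutrophil-like cells were 60.2% and 35.8% of all cells and macrophage-like cells 10.4% and 15.9%, but the level within each class differed as well.

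**Figure D2:**
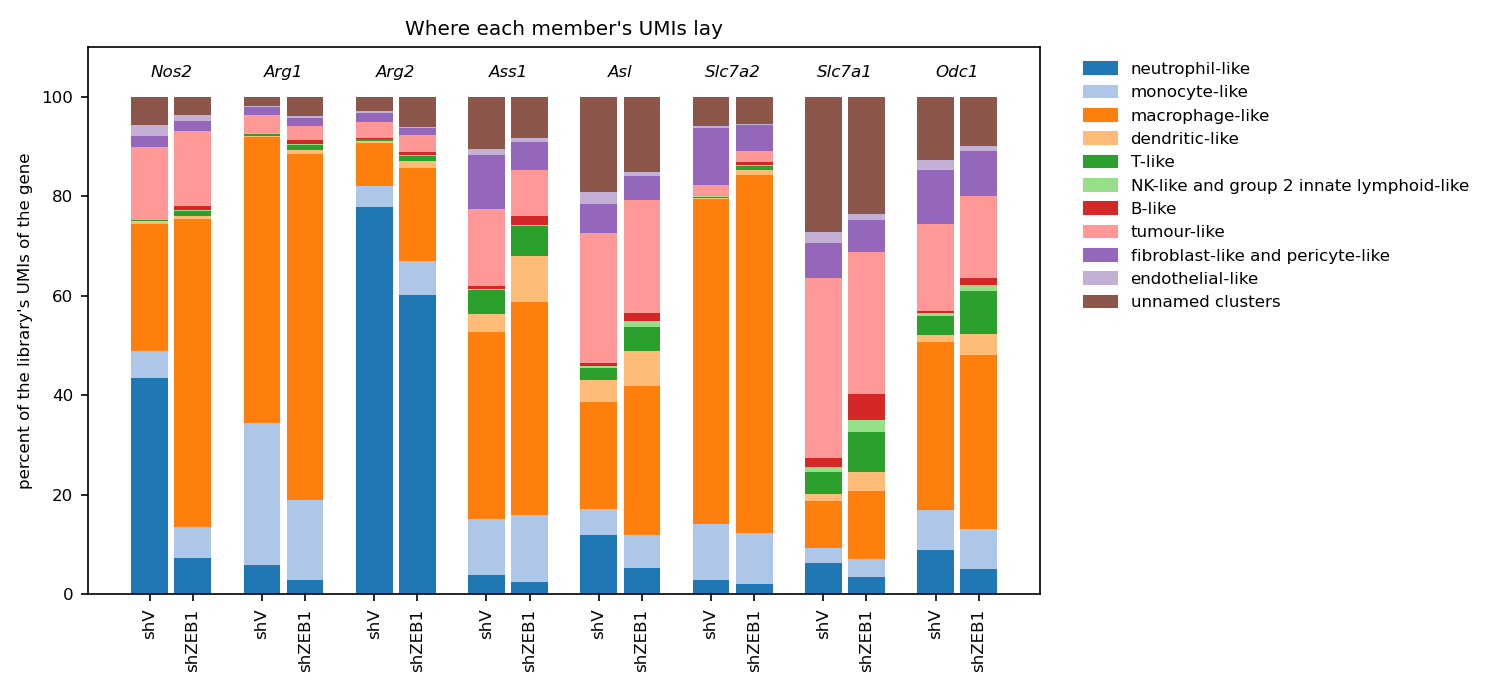
Percent of each library's UMIs of a member that lay in each cell class, as stacked bars that reach 100, with the KPC-shV-labelled library on the left of each pair. For Nos2 the neutrophil-like share was 43.3% and 7.28% and the macrophage-like share 25.5% and 62.0%, whereas Arg1 and Slc7a2 lay mostly in macrophage-like cells in both libraries.

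In neutrophil-like cells Nos2 stood at 59.2 CPM (56.0–62.4) and 23.7 CPM (21.2–26.5), a ratio of 0.401 (0.353–0.453). A UMI of Nos2 was found in 10.98% and 5.41% of the cells, and in 4.68% and 2.33% once all cells had been thinned to a depth of 1000 UMIs. The thinned shares in B-like cells were 0.346% and 0.734%, so the neutrophil-like shares lay above that background in both libraries. Median depths were 3147 and 2907 UMIs in neutrophil-like cells and 3732 and 3417.5 UMIs in B-like cells. The signal was spread over many cells, with 5.18% and 7.86% of it in the 5 cells with most UMIs.

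Neutrophil-like sub-clusters differed from each other in Nos2 more than the libraries did. The highest level, 140.3 CPM (126–155) and 92.8 CPM, was in the sub-cluster led by Hspa1b, Atp6v0d2 and Hspa1a. Of these genes, Hspa1a and Hspa1b are heat-shock genes. Of the neutrophil state lists this sub-cluster scored best on the hypoxic one, at 0.92 with 7 markers. The sub-cluster led by Syne1, Fnip2 and Kntc1, which took the hypoxic name, scored 0.66 with 6. The Hspa1b sub-cluster took no state name because none of those markers was among its 10 leading genes. The sub-cluster led by Atp6v0d2, Syne1 and Mtmr7 followed at 100.2 and 53.1 CPM, a ratio of 0.530 (0.386–0.713). The interferon-state sub-cluster, led by Ifit2 and Ifit1, stood at 83.2 and 25.3 CPM, a ratio of 0.304 (0.173–0.501). These 3 were high in the KPC-shV-labelled library and lower in the other. The sub-cluster led by Syne1, Fnip2 and Kntc1, with the hypoxia markers Bnip3 and Ero1l among its leading genes, stood at 72.4 and 71.2 CPM, with a ratio of 0.984 (0.672–1.41) whose interval spans 1.

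At the low end were the sub-cluster led by Ngp, Camp and Lrg1, at 25.7 and 14.2 CPM, and the Siglecf state at 17.2 and 9.07 CPM. The sub-cluster led by Gngt2, Gpc3 and Siglecf had 12.2 and 15.2 CPM, with overlapping intervals. The makeup of the class differed along this range. Of the sub-clusters with at least 50 cells in each library, the 4 with the highest Nos2 held 1023, 1041, 546 and 716 cells in the KPC-shV-labelled library and 340, 296, 214 and 171 in the KPC-shZEB1-labelled library, while the Siglecf state held 587 and 1089 cells. With both libraries given the same sub-cluster makeup, the ratio of Nos2 in neutrophil-like cells was 0.615 or 0.620 rather than 0.401. A lower level within sub-clusters and fewer cells in the high ones thus both entered the class ratio.

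**Figure D3:**
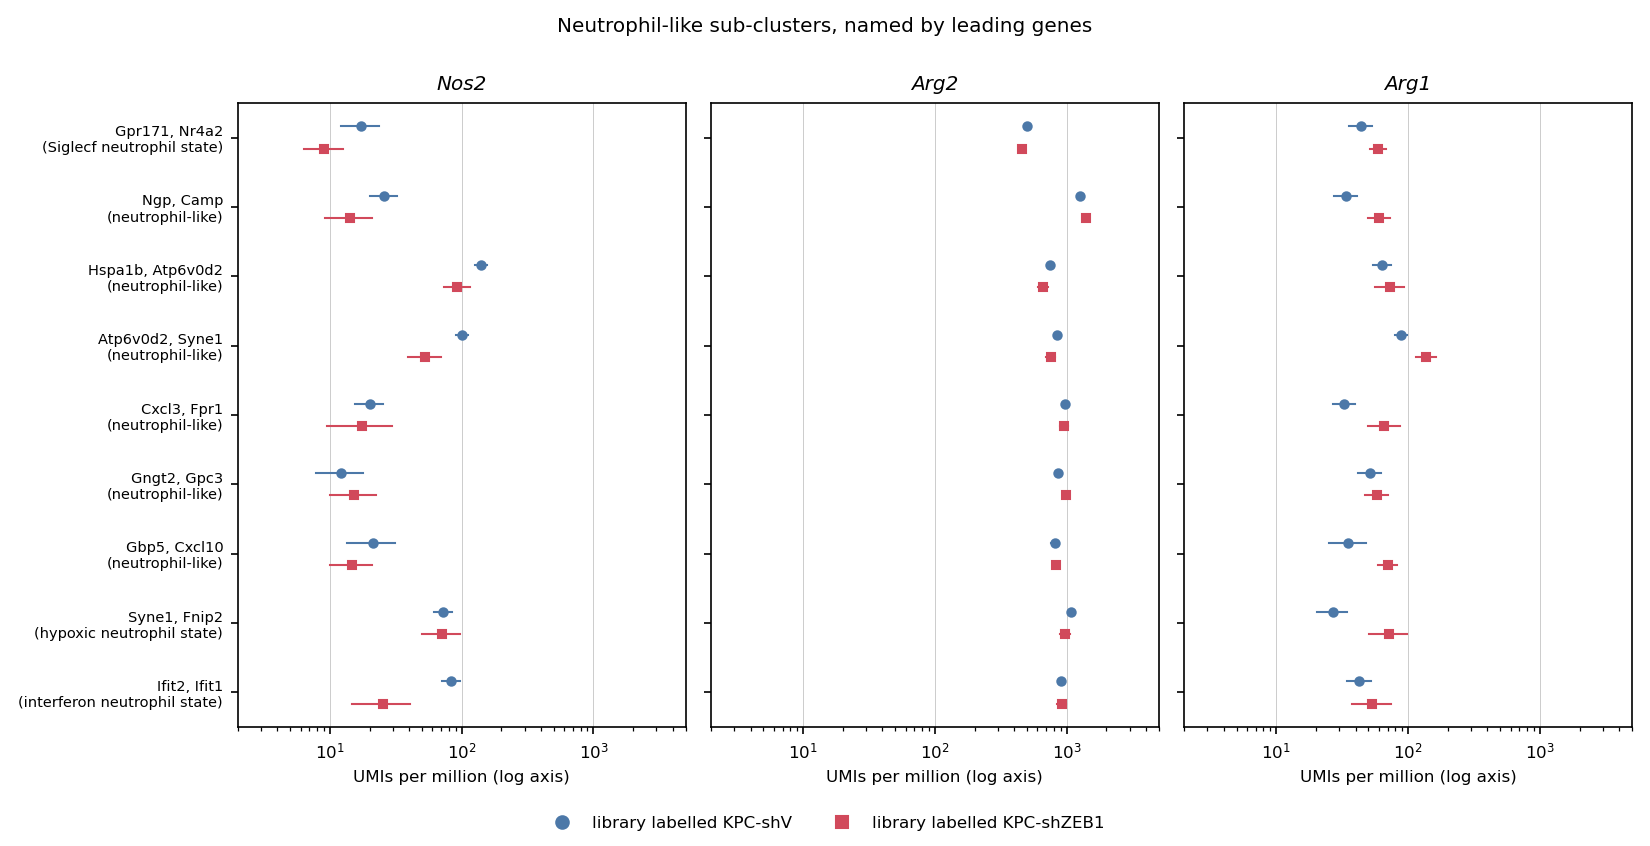
CPM (log axis) of Nos2, Arg2 and Arg1 in the neutrophil-like sub-clusters with at least 50 cells in each library, labelled by leading genes and, where one was named, state; circles are the KPC-shV-labelled library, squares the KPC-shZEB1-labelled library and lines 95% Poisson intervals. Nos2 ranged from 12.2 to 140.3 CPM in the KPC-shV-labelled library, while Arg2 was above 450 CPM in every sub-cluster shown.

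Macrophage-like cells showed the opposite difference in Nos2. The level was 43.7 CPM (40.7–46.8) and 87.0 CPM (83.8–90.3), a ratio of 1.99 (1.84–2.16). Cells with a UMI were 13.8% and 19.9% of the class, and 3.04% and 4.99% after thinning. Most of the difference in UMIs lay in 1 sub-cluster. It was led by H2-M2, Vcam1 and Ccl8, was given no state name, and held 106 and 423 cells with 208 and 1694 Nos2 UMIs, of 795 and 2708 in the class.

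Within that sub-cluster Nos2 stood at 116 CPM (101–133) and 234 CPM, a ratio of 2.02 (1.75–2.34). Sub-clusters that also stayed without a state name were lower and closer between the libraries, at 30.3 and 41.1 CPM where Adamdec1 led and at 50.9 and 42.3 CPM where Ccl17 led. Cells of the Gpnmb and Mmp12 state were high in both libraries and slightly lower in the KPC-shZEB1-labelled library, at 152 CPM (134–171) and 128 CPM (116–142). Cycling macrophage-like cells had 7.35 CPM (4.43–11.5) and 43.5 CPM (37.5–50.1) from 19 and 190 UMIs. Cells of the Lyve1 and Folr2 state had 3.86 and 5.40 CPM, about the level in B-like cells.

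At an equal sub-cluster makeup the ratio of Nos2 in macrophage-like cells was 1.36 or 1.58, so with the makeup of the KPC-shV-labelled library it no longer reached 1.5. The UMIs were concentrated. The 5 cells with most Nos2 held 22.5% and 13.5% of them. Without those 5 cells of each library the ratio was 2.22.

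Monocyte-like cells had 32.9 CPM (28.2–38.2) and 38.7 CPM (34.2–43.7) of Nos2, with overlapping intervals and 54.0% and 43.3% of the UMIs in 5 cells. The ratio of 1.18 (0.969–1.43) moved between 0.378 and 1.97 over the alternatives tried, so no direction can be given. The 5 cells with most Nos2 also weighed in tumour-like cells, holding 32.9% and 19.9% of it. In tumour-like cells the level was 23.3 CPM (21.2–25.6) and 32.2 CPM (29.8–34.8), a ratio of 1.38 (1.22–1.56), which lay between 1.04 and 1.64 over the alternatives. Endothelial-like cells had 23.9 and 27.1 CPM from 67 and 49 UMIs, of which 5 cells held 50.7% and 42.9%. T-like cells had 3.70 and 7.39 CPM and B-like cells 3.45 and 8.29 CPM, the floor in these libraries. A Nos2 UMI was found in 0 of 55 NK-like cells of the KPC-shV-labelled library, where a floor of 3 counts allows up to 5.45% of cells with a UMI, which is no limit on cells that express the gene. The level over all cells, 30.8 and 36.7 CPM, was close in the libraries and did not show the opposite differences in neutrophil-like and macrophage-like cells.

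Arg1, which encodes the cytosolic arginase of the liver urea cycle and of activated macrophages (ENSMUSG00000019987; chromosome 10, 24915221 to 24927484, minus strand), belonged to monocyte-like and macrophage-like cells. It was counted 18940 and 32382 times in all. Macrophage-like cells held 57.6% and 69.5% of them, monocyte-like cells 28.5% and 16.02%, and neutrophil-like cells 5.91% and 2.83%. Of the remaining classes with at least 50 cells in each library, the highest level was 68.3 CPM, in neutrophil-like cells.

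Macrophage-like cells had 599 CPM (588–611) and 723 CPM (714–733) of Arg1, a ratio of 1.21 (1.18–1.24). Levels across states spanned a wider range than that. The Gpnmb and Mmp12 state was highest, at 2133 CPM (2066–2201) and 2824 CPM, a ratio of 1.32 (1.27–1.38), and 96.4% and 98.7% of its cells had a UMI. Cycling cells had 567 and 806 CPM. In the sub-cluster led by H2-M2, the one in which Nos2 was higher in the KPC-shZEB1-labelled library, Arg1 was lower there, at 738 and 606 CPM with a ratio of 0.820 (0.771–0.873). The Lyve1 and Folr2 state was lower too, at 524 and 328 CPM with a ratio of 0.627 (0.576–0.682). The ratio of the class was thus made of states on both sides of 1.

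Among monocyte-like cells Arg1 stood at 1021 CPM (994–1049) and 749.6 CPM (729–770), a ratio of 0.734 (0.706–0.763). Different sub-clusters held most of the class in each library. The 10 macrophage markers summed to 4981 and 10251 CPM in monocyte-like cells, with 9 of the 10 higher in the KPC-shZEB1-labelled library, and the 8 monocyte markers to 5889 and 4176 CPM, with 1 of the 8 higher and none of either list at 0. Their part in the monocyte-like results was not tested. The one led by Plcb1, Vcan and Retnla had 233 and 150 cells and the highest Arg1, at 1456 and 1610 CPM, while the one led by Ly6i, Chil3 and Plac8 had 86 and 339 cells and 593 and 368 CPM. At an equal makeup the ratio of the class was 0.979 or 0.878, and with cells kept from 200 genes and 500 UMIs and the class drawn again, then 397 and 385 cells, it was 1.010. Over all alternatives it lay between 0.551 and 1.010.

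Neutrophil-like cells had 49.0 CPM (46.2–52.0) and 68.3 CPM (64.0–72.9) of Arg1, a ratio of 1.39 (1.28–1.52). B-like cells had 28.4 and 59.6 CPM and T-like cells 22.6 and 47.5 CPM, with ratios of 2.09 and 2.10. After thinning, 3.73% and 5.91% of neutrophil-like cells had a UMI, against 2.77% and 4.81% of B-like cells and 2.20% and 5.38% of T-like cells. Macrophage markers in neutrophil-like cells were higher in the same library, as given above, and their part in the Arg1 ratio was not tested. With a library-wide RNA background subtracted, 23.7 and 17.7 CPM were left, and the ratio turned to 0.747. No direction is therefore given for Arg1 in neutrophil-like cells.

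**Figure D4:**
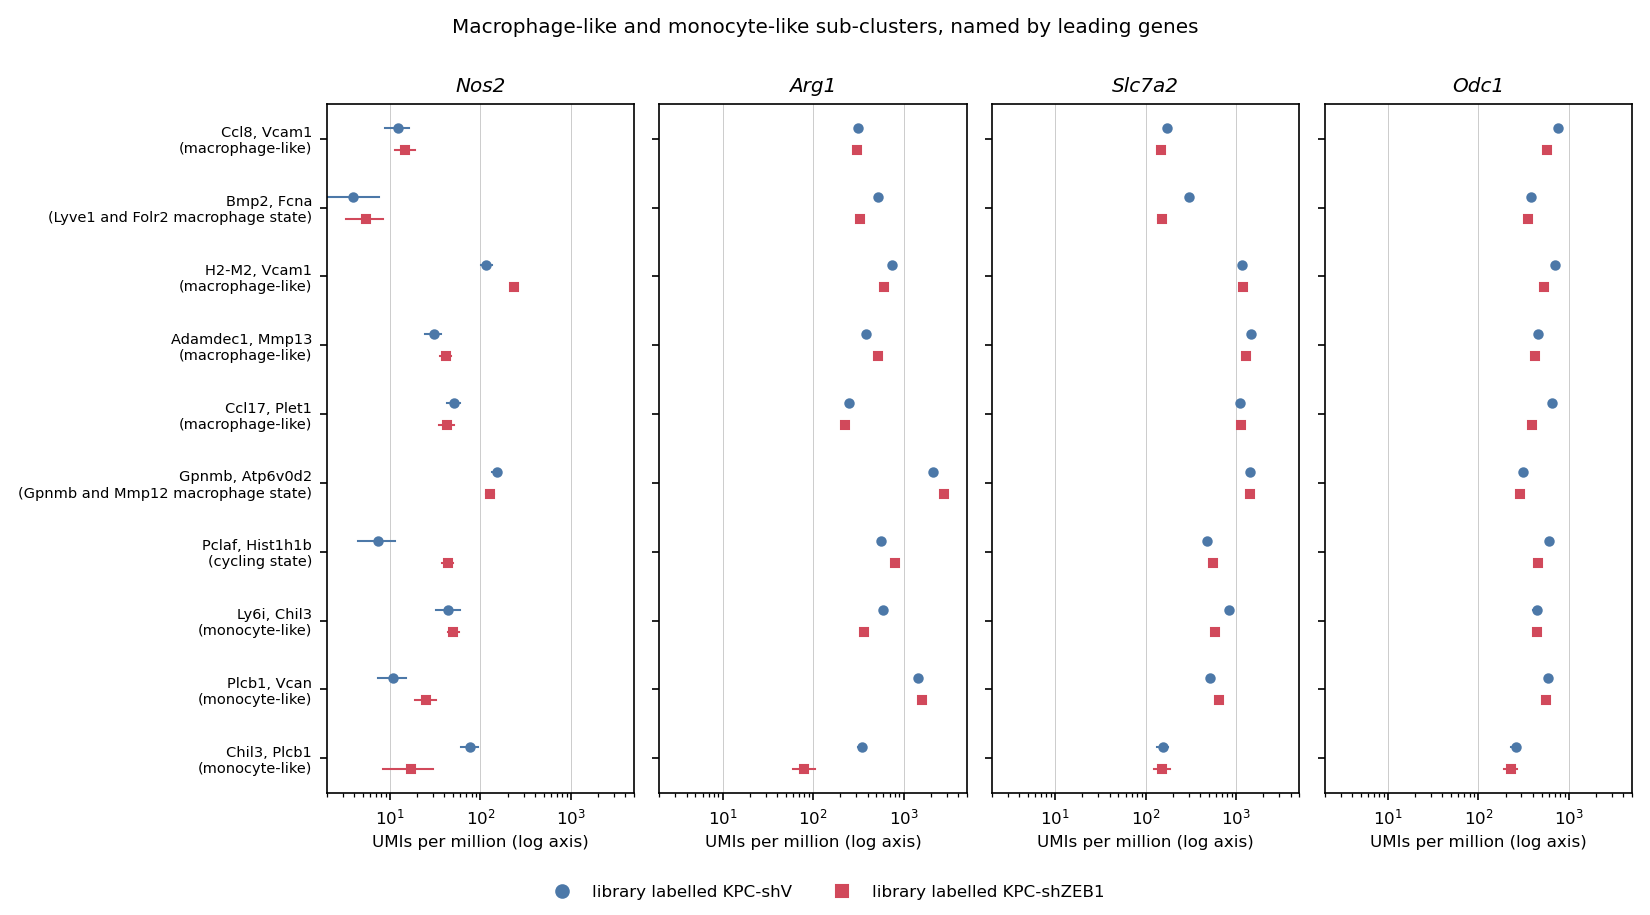
CPM (log axis) of Nos2, Arg1, Slc7a2 and Odc1 in the macrophage-like and monocyte-like sub-clusters with at least 50 cells in each library, labelled by leading genes and, where one was named, state; circles are the KPC-shV-labelled library, squares the KPC-shZEB1-labelled library and lines 95% Poisson intervals. Nos2 was highest in the H2-M2 and Gpnmb sub-clusters, Arg1 in the Gpnmb sub-cluster at 2133 and 2824 CPM, and Odc1 had ratios below 1 in all 7 macrophage-like sub-clusters shown.

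Arg2, the mitochondrial arginase (ENSMUSG00000021125; chromosome 12, 79130777 to 79156301, plus strand), was the arginase of neutrophil-like cells. Its level there was 895 CPM (883–908) and 819 CPM (803–834), a ratio of 0.914 (0.893–0.936). It was found in 81.5% and 75.6% of the cells, and after thinning in 52.6% and 47.8%, against 4.15% and 2.20% of B-like cells. Monocyte-like cells followed at 212 CPM (200.0–225) and 182 CPM (172–192), then macrophage-like cells at 124 CPM (119–130) and 109 CPM (106–113), and the other classes with at least 50 cells in each library lay between 22.6 and 45.7 CPM. The order neutrophil, monocyte, macrophage was the same in both libraries and no intervals overlapped. The Gpnmb and Mmp12 macrophage state differed more than its class, at 183 CPM (164–204) and 120.4 CPM (108–133), a ratio of 0.657 (0.565–0.765). The 11 neutrophil markers summed to 2054 and 1423 CPM in macrophage-like cells, with 5 higher in the KPC-shZEB1-labelled library. In monocyte-like cells they summed to 2143 and 1573 CPM, with 3 higher. The part of such RNA in these Arg2 values was not tested.

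All neutrophil-like sub-clusters with at least 50 cells in each library had Arg2 above 450 CPM. The sub-cluster led by Ngp, Camp and Lrg1 was highest at 1262 and 1392 CPM, and the Siglecf state was lowest at 500.1 and 458 CPM. Between the libraries the sub-clusters stayed within 0.882 and 1.14 of each other. With the makeup of either library the class ratio was 0.988 or 1.009, which leaves no difference to describe. Tumour-like cells had 45.7 CPM (42.7–48.8) and 30.4 CPM (28.0–32.9), a ratio of 0.665 (0.599–0.738). The neutrophil marker list summed to 1522 and 770.4 CPM in these tumour-like cells, and the part of such RNA in the Arg2 ratio was not tested. The ratio lay just past 1.5 fold, and under 3 of the alternatives, with ratios of 0.684 to 0.760, it did not reach it. With background RNA subtracted, 7.44 and 3.08 CPM were left, a ratio of 0.414.

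Ass1 and Asl encode the argininosuccinate synthase and lyase that turn citrulline back into arginine. Ass1 (ENSMUSG00000076441; chromosome 2, 31470207 to 31520672, plus strand) was higher in monocyte-like cells of the KPC-shZEB1-labelled library, at 55.6 CPM (49.4–62.3) and 111 CPM (103–119), a ratio of 1.99 (1.74–2.29). The macrophage markers were higher in these cells of the same library too, as given for Arg1, and their part in the Ass1 and Asl ratios was not tested. Macrophage-like cells had 54.0 and 77.4 CPM, a ratio of 1.43 (1.33–1.55). At an equal sub-cluster makeup the monocyte-like ratio was 1.31 or 1.28, and 5 other alternatives gave 1.35 to 1.496, so the monocyte-like ratio depended on how the class was drawn. That of macrophage-like cells was 1.41 or 1.47 at an equal makeup and 1.38 to 1.66 over all alternatives. The sub-cluster led by Ly6i, Chil3 and Plac8, which was larger in the KPC-shZEB1-labelled library, was also the highest of the monocyte-like ones, at 121 and 153 CPM.

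Within macrophage-like cells Ass1 was highest in the sub-cluster led by Ccl17, at 123 and 163 CPM, followed by that led by Adamdec1, at 79.2 and 129 CPM. The Ccl17-led sub-cluster was named from 9 macrophage markers, but 0 of them were among the 10 genes that led it against all clusters. Ccl22, a mature dendritic marker, was among its leading genes. The sub-cluster led by H2-M2 had 51.8 and 89.6 CPM. The Lyve1 and Folr2 state had 6.28 and 8.25 CPM. Outside the phagocytes, mature dendritic-like cells had 102 and 129 CPM and the T-like sub-cluster led by Tnfrsf4, Itgb8 and Il1rl1, with Foxp3 among its 10 leading genes, 177 CPM (132–233) and 153 CPM (124–188), from 62 and 126 cells. Neutrophil-like cells had 4.38 and 10.2 CPM of Ass1, below the 13.8 and 22.8 CPM of B-like cells, so it was at background there.

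Asl (ENSMUSG00000025533; chromosome 5, 130011258 to 130029247, minus strand) was low in all classes. Monocyte-like cells had 12.9 CPM (9.99–16.3) and 21.1 CPM (17.8–24.8), a ratio of 1.64 (1.22–2.22), and macrophage-like cells 15.6 and 21.5 CPM, a ratio of 1.38 (1.20–1.60). With a mean over cells in place of summed UMIs the monocyte-like ratio was 1.23. Tumour-like cells had 17.7 and 24.8 CPM. The highest levels were in the few mature dendritic-like cells, 60.7 CPM (39.3–89.7) and 53.4 CPM (41.2–68.0). Neutrophil-like cells, at 6.83 and 8.87 CPM, did not differ from B-like cells beyond the intervals.

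Slc7a2, the inducible cationic amino acid transporter of macrophages (ENSMUSG00000031596; chromosome 8, 40862396 to 40922308, plus strand), lay mostly in the classes that held Arg1. Macrophage-like cells had 818 CPM (805–832) and 868 CPM (857–878), a ratio of 1.06 (1.04–1.08), and held 65.3% and 71.9% of all its UMIs. At an equal makeup the ratio was 0.958 or 0.966, so no direction is given. The Gpnmb and Mmp12 state had 1436 and 1413 CPM and the sub-clusters led by Adamdec1, H2-M2 and Ccl17 lay between 1099 and 1452 CPM in the KPC-shV-labelled library and between 1136 and 1284 CPM in the other. The Lyve1 and Folr2 state was low and differed, at 302 CPM (279–326) and 149.8 CPM (137–163), a ratio of 0.496 (0.441–0.558), in the same cells in which Arg1 was lower.

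Monocyte-like cells had 491 CPM (472–510.4) and 564 CPM (547–582) of Slc7a2. Fibroblast-like cells, with 240.1 CPM (231–249) and 180.2 CPM (172–188), were the only other class above 100 CPM among those with at least 50 cells in each library. Their ratio was 0.751 (0.708–0.796). In neutrophil-like cells the level was 27.8 and 54.1 CPM, a ratio of 1.94 (1.74–2.16), and in B-like cells 23.3 and 49.5 CPM and in T-like cells 21.3 and 45.9 CPM. These classes stood at one level in each library, and after subtraction of the library-wide background none was left in neutrophil-like cells. Tumour-like cells had 24.9 and 41.0 CPM, a ratio of 1.65 (1.47–1.85), again at the level of lymphocytes. The ratio was 1.28 to 2.33 under the alternatives that gave one. With the library-wide background subtracted no Slc7a2 was left in tumour-like cells, so that alternative gave no ratio.

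Slc7a1, the widely expressed cationic transporter (ENSMUSG00000041313; chromosome 5, 148327410 to 148399904, minus strand), had a different distribution. Lymphocytes and tumour-like cells were highest. NK-like cells had 186 CPM (146–233) and 271 CPM (240–304), T-like cells 192 CPM (174–211) and 160.2 CPM (150.5–170), tumour-like cells 172 and 175 CPM and B-like cells 149 and 147 CPM. Gamma-delta T cells reached 394 and 308 CPM from 33 and 57 cells. Myeloid cells were low, with 48.4 and 55.0 CPM in macrophage-like, 52.0 and 66.9 CPM in monocyte-like and 25.4 and 31.6 CPM in neutrophil-like cells. No ratio in these 3 classes went beyond 1.29.

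Odc1 encodes ornithine decarboxylase, the first enzyme of polyamine synthesis (ENSMUSG00000011179; chromosome 12, 17544794 to 17551505, plus strand). Of the classes and sub-clusters with at least 50 cells in each library, the T-like sub-cluster led by Tnfrsf4, Itgb8 and Il1rl1 had the most, 1238 CPM (1113–1374) and 1173 CPM (1089–1262), above CD4 T cells at 648 and 634 CPM and CD8 T cells at 355 and 354 CPM. Macrophage-like cells were lower in the KPC-shZEB1-labelled library, at 577 CPM (566–588) and 450.3 CPM (443–458), a ratio of 0.781 (0.761–0.801). The ratio was 0.771 or 0.783 at an equal makeup, and all 7 macrophage-like sub-clusters with at least 50 cells in each library had ratios below 1, from 0.601 in the sub-cluster led by Ccl17 to 0.922 (0.843–1.01) in the Lyve1 and Folr2 state. Monocyte-like cells had 480.0 and 464 CPM, with a ratio of 0.967 (0.918–1.02).

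Neutrophil-like cells had less Odc1, 121 CPM (117–126) and 153 CPM (147–160), a ratio of 1.27 (1.20–1.34). With the library-wide background subtracted, 79.3 and 90.4 CPM were left. B-like cells had 79.3 and 118 CPM, a ratio of 1.49 (1.19–1.88), so the class with the lowest level was also higher in the KPC-shZEB1-labelled library. The interferon-state neutrophils had 95.3 and 175 CPM, a ratio of 1.84 (1.45–2.32), and the Siglecf state 202 and 201 CPM, a ratio of 0.994 (0.884–1.12).

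The members past 1.5 fold numbered from 1 of 8 tested in macrophage-like cells to 4 of 8 in endothelial-like cells. In neutrophil-like cells 6 members reached 10 CPM and 30 UMIs, of which Slc7a2 was higher and Nos2 lower in the KPC-shZEB1-labelled library, with Slc7a2 at the level of lymphocytes. Of the 6975 genes at that level, 14.1% were higher and 2.47% lower by 1.5 fold, so genes that were lower by that much were uncommon in this class and genes that were higher were not. Among 7585 genes in monocyte-like cells, 5.14% were higher and 2.11% lower, and of the 8 members Ass1 and Asl were higher and none lower. In macrophage-like cells, where 1.91% of 7902 genes were higher and 0.569% lower, Nos2 was the only 1 of 8 members past the limit. Tumour-like cells had Slc7a2, at the level of lymphocytes, higher and Arg2 lower of 8 members, against 3.48% and 1.34% of 9183 genes. Nos2 had been described in these libraries before the members were chosen, so its place beyond the limit in neutrophil-like or macrophage-like cells is no independent result.

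Endothelial-like cells had Arg1, Ass1 and Slc7a2 higher and Arg2 lower, against 9.22% and 5.56% of 8862 genes. Arg1 stood at 14.97 and 60.8 CPM there, a ratio of 4.06 (2.82–5.94), with 53.6% of the 110 UMIs of the KPC-shZEB1-labelled library in 5 cells. Ass1 stood at 9.62 and 28.7 CPM, Slc7a2 at 21.0 and 60.2 CPM and Arg2 at 37.4 and 22.6 CPM. In these cells the 10 macrophage markers summed to 685 and 2098 CPM, with all 10 higher, and the 11 neutrophil markers to 1845 and 755 CPM, with 3 higher and none of either list at 0, and their part in the ratios was not tested. B-like cells had Arg1, Ass1 and Slc7a2 higher of 6 members and none lower, against 8.75% and 3.33% of 8231 genes. T-like cells had Arg1 and Slc7a2 higher of 7 members and none lower, against 5.21% and 2.48% of 8626 genes. NK-like cells had Asl and Slc7a2 higher and Arg2 lower of 6 members, against 12.3% and 8.25% of 6328 genes, with intervals that spanned 1 for all 3. Fibroblast-like cells had Arg1 higher and Arg2 lower of 6 members, against 3.37% and 2.55% of 8721 genes. Arg1 and Slc7a2 in B-like, T-like and NK-like cells, and Arg1 in fibroblast-like and endothelial-like cells, lay between 14.97 and 60.8 CPM.

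**Figure D5:**
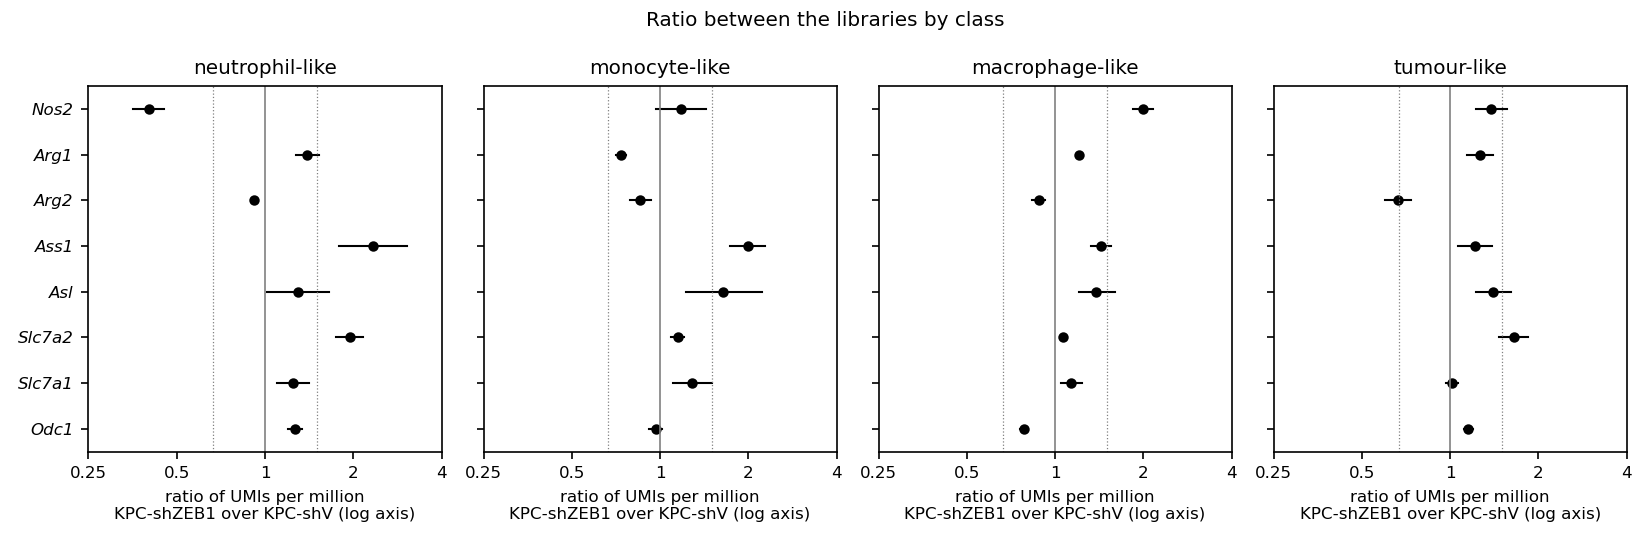
Ratio of CPM, KPC-shZEB1 over KPC-shV (log axis), for each member in 4 classes; points are ratios, lines exact 95% intervals for counting error, the solid line marks 1 and dotted lines 1.5 fold in either direction. Nos2 lies at 0.401 in neutrophil-like and 1.99 in macrophage-like cells, the lowest of the members in the first class and the highest in the second.

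A list of 51 further genes of the pathway (nitric oxide synthesis and its tetrahydrobiopterin cofactor, polyamines, proline, creatine, cationic transport and arginine methylation), 49 of which were in the files, showed where the surroundings of the members differed. In macrophage-like cells 29 were at the level tested and 0 went past 1.5 fold in either direction. Of all genes in this class, 1.91% were higher and 0.569% lower by that much. The median log2 ratio of the list was -0.07, beside 0.01 over all genes. The smallest ratio was 0.722 for Gatm, the first enzyme of creatine synthesis, at 165 and 119 CPM. The largest was 1.13 (1.09–1.18) for Gch1, the entry enzyme of the cofactor that nitric oxide synthases need, at 238 and 269.9 CPM. Pts, another enzyme of that cofactor, went the other way and differed more, with a ratio of 0.794 (0.725–0.870). In monocyte-like cells 28 were tested and 0 passed, against 5.14% of all genes higher and 2.11% lower, with a median of 0.10 beside 0.02. The extremes there were Sat1, which breaks down polyamines, at 0.785, and Slc3a2, the heavy chain of amino acid transporters, at 1.40.

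Neutrophil-like cells had 22 genes of the list at that level, with a median log2 ratio of 0.14 beside 0.19 over all genes. Of these 22, 6 were higher and 2 lower past 1.5 fold, against 14.1% and 2.47% of all genes. The lower ones were P4ha1, a prolyl hydroxylase subunit, at 354 and 209 CPM with a ratio of 0.589 (0.564–0.615), and Pts, the second enzyme of tetrahydrobiopterin synthesis, at 197 and 121 CPM with a ratio of 0.614 (0.580–0.650). Pts was not lower in neutrophil-like cells alone. Its ratio was 0.827 in monocyte-like, 0.794 in macrophage-like and 0.808 in tumour-like cells, while that of Nos2 was 1.99 in macrophage-like cells. P4ha1 had a ratio of 0.783 in tumour-like cells. No ratio at an equal sub-cluster makeup was computed for P4ha1 and Pts, and the part of makeup in their ratios was not tested. The largest ratios, 2.07 for Srm, 2.05 for Atp13a2 and 1.69 for Sms, belonged to genes of polyamine synthesis and transport at under 20 CPM. Macrophage and acinar markers were also higher in neutrophil-like cells of the KPC-shZEB1-labelled library, as given above. Their part in these ratios was not tested. In tumour-like cells 1 of 32 was higher, Atp13a2 at 1.60, and 0 were lower, against 3.48% and 1.34% of all genes.

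Both Nos2 and Arg1 were found in 123 of 1184 and 321 of 1923 macrophage-like cells, and after thinning to 1000 UMIs in 17 and 32 cells. Of the cells with a Nos2 UMI, 75.5% (68.1–81.9) and 83.8% (79.7–87.4) also had one of Arg1, against 57.2% and 63.9% of those without Nos2. After thinning these shares were 47.2% (30.4–64.5) and 33.3% (24.0–43.7), against 24.6% (22.1–27.2) and 23.8% (21.8–25.8). The intervals of cells with and without Nos2 thus overlapped in the KPC-shZEB1-labelled library. An Arg1 UMI was found in 11.1% and 16.2% of B-like cells at their own, lower depth, and in 2.77% and 4.81% after thinning. Median depths were 14383 and 15434 UMIs in macrophage-like cells. Within the Gpnmb and Mmp12 state nearly every cell had Arg1 whether or not it had Nos2, 96.1% and 98.7% with Nos2 and 96.6% and 98.8% without. In neutrophil-like cells with Nos2, 15.1% and 14.1% had Arg1, against 10.5% and 15.6% without. After thinning the neutrophil-like shares were 4.67% (2.64–7.59) and 6.93% (2.83–13.8), near those of B-like cells.

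Over the 18 profiles of 9 classes in 2 libraries, the 5 genes whose levels were most like those of Nos2, of 7072 considered, were Mospd2, Rhbdf2, Ralgds, Arf2 and Wdfy3, with Pearson's r from 0.872 to 0.909. For Arg1 they were Tbxas1, Lyz2, Fcgr1, Ccl9 and Msr1, with r from 0.977 to 0.989. The profiles share libraries and depth, and these values describe likeness across classes only.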

How the data were processed

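Each of the 2 libraries was a droplet 3′ single-cell RNA library of 1 tumour. The files hold UMI counts as deposited, from a filtered Cell Ranger 7.0.1 matrix on mm10 (GRCm38), and whether intron reads were counted is not given in the sources used here. Cells needed 500 genes, 1000 to 60000 UMIs, up to 15% mitochondrial UMIs and a Scrublet score up to 0.2, which left out 315 and 343 doublets. The libraries were clustered together in scanpy 1.11.5 (3000 variable genes without the members and the pathway list, 30 components, 20 neighbours, Leiden resolution 1), and neutrophil, myeloid, and T and NK clusters were clustered again. Clusters were named from marker lists by a scoring rule settled on these data, a state also needed 1 of its markers among its 10 leading genes and no other list with more, and 646 and 1068 cells stayed unnamed.

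UMIs of a class were summed and divided by the class total. Intervals are exact (Poisson for levels, conditional binomial for ratios, Clopper-Pearson for shares). A gene counted as past 1.5 fold needed a mean of 10 CPM and 30 UMIs. Background RNA was estimated, for 1 alternative, from each library's profile and foreign markers. Likeness was Pearson's r over log2(CPM + 1), with the 5 most alike genes named, and the 3 smallest and 3 largest ratios of the pathway list per class were open to naming. The ratio step was tested on simulated data. The members and lists were chosen with earlier results of these data known.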

Additional observations from a re-analysis of the deposited data

Results flagged for a closer look

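Nos2 differed between the libraries in opposite directions in neutrophil-like and macrophage-like cells. The ratios of 0.401 and 1.99 are 2.31 apart on the log2 scale. Arg1 had ratios of 0.734 in monocyte-like and 1.39 in neutrophil-like cells, 0.93 apart, and Odc1 had 0.781 in macrophage-like and 1.27 in neutrophil-like cells, 0.70 apart. With 1 library per group these differences were not tested, and the Arg1 ratio of neutrophil-like cells lay below 1 once background RNA was subtracted. After that subtraction 79.3 and 90.4 CPM of Odc1 were left in neutrophil-like cells. The monocyte-like ratio of Arg1 was 0.979 or 0.878 at an equal sub-cluster makeup.

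All members were also found in the 289 and 217 barcodes above 60000 UMIs, which entered no comparison, at levels above what a count of 0 allows. Nos2 had 16.3 and 28.3 CPM there, Arg1 had 23.9 and 47.0 CPM, and Arg2 had 40.0 and 26.4 CPM. Ass1 had 21.5 and 28.7 CPM, Asl 17.2 and 23.8 CPM, Slc7a2 73.2 and 79.4 CPM, Slc7a1 153 and 178 CPM, and Odc1 328 and 347 CPM.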

How the results depend on the processing

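The Nos2 ratio in macrophage-like cells (1.99) was 1.82 without doublet removal, 2.29 with classes from markers in single cells, 2.22 without the 5 cells richest in Nos2, and 1.36 or 1.58 at an equal sub-cluster makeup, the first of which no longer reached 1.5 fold. In neutrophil-like cells the Nos2 ratio (0.401) was 0.307 with background RNA subtracted and 0.615 or 0.620 at an equal makeup. The Arg1 ratio there (1.39) was 0.747 with background subtracted and 1.56 at the KPC-shV makeup, on the other side of 1 and past 1.5 fold respectively. In macrophage-like cells the Arg1 ratio (1.21) was 1.13 with cells from 200 genes, 1.17 without an upper UMI limit, 1.18 without doublet removal, 1.14 at Leiden resolution 1.5, 1.13 with the members among the variable genes, 1.10 as a mean over cells, 1.26 without the 5 richest cells, and 1.14 or 1.10 at an equal makeup. The cause of these differences was not tested.

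Thinned to 1000 UMIs, Nos2 was found in 4.68% and 2.33% of neutrophil-like and 3.04% and 4.99% of macrophage-like cells, and Arg1 in 3.73% and 5.91% and in 25.3% and 24.2%. Arg1 was then found with Nos2 in 4.67% and 6.93% of neutrophil-like and 47.2% and 33.3% of macrophage-like cells. Without the CPM minimum 2 members rather than 1 were higher in neutrophil-like cells, the second being Ass1.

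Of 373 values for 28 other ratios, 85 moved beyond the counting interval, 23 lay on the other side of 1 and 8 were over 1.5 times from the main value. The equal makeup and the removal of shared barcodes were chosen after seeing the data. No paired analysis was possible because each group had 1 library, which also leaves no replicate to leave out.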

Other observations

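Dendritic-like cells, which were too few for the comparisons, had their own pattern of the members. The myeloid sub-cluster led by Ccl17, Adam23 and Ctnnd2, which scored as type 2 dendritic but had more mature dendritic markers among its leading genes (47 and 168 cells), had 52.0 CPM (36.6–71.7) and 115 CPM (102–128) of Ass1. Mature dendritic-like cells (37 and 99) had 53.5 CPM (33.5–80.9) and 169 CPM (147–194) of Slc7a2, with 149 of the 206 UMIs of the KPC-shZEB1-labelled library in 5 cells. Nos2 was low in both, from 3 to 14 UMIs. Type 1 dendritic-like cells (12 and 35) had 482 and 670 CPM of Odc1, with a UMI in all of them.

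Group 2 innate lymphoid-like cells, with 7 and 20 cells, had 424 CPM (247–678) and 254 CPM (166–372) of Arg1 from 17 and 26 UMIs, the highest Arg1 of the named classes other than monocyte-like and macrophage-like cells, and no Nos2 UMI in either library.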
